A study of Mus musculus with 16 samples.

Results

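The inguinal lymph node (LN) on the side opposite a subcutaneous tumor does not drain it, and comparing it with a tumor-free node asks what a growing tumor does to a distant node. Libraries of such contralateral, non-draining nodes from mice carrying live MC38 tumors, titled LiveMC38_NonDraining A, B and C, were compared with nodes of naive mice that received no cells, A to D. These are 3 and 4 of the 16 libraries of the series, and they hold 7338 and 14577 of its 50386 kept cells, a kept cell being a barcode with 200 to 6000 genes and at most 30% mitochondrial UMIs (unique molecular identifiers, 1 per captured transcript). MC38 is a mouse colon carcinoma line, and 500000 cells were placed under the skin of the lower right flank 12 days before collection. A further 3 libraries from the contralateral node of mice given the same number of paraformaldehyde-fixed MC38 cells, called fixed non-draining here, serve as a second comparison in which nothing grew.

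All mice were sex-matched C57Bl/6 animals of 8 weeks. The live and fixed groups are stated as 3 mice each, and which node was taken from naive mice is not given in the sources used here. Nodes were digested with collagenase P, dispase and DNase, cells were positively selected with an antibody to podoplanin (PDPN), and the 10x Genomics 3′ v3 chemistry was used, so each share below is a share of a selected suspension and not of the node. Nothing in the labels says that the libraries of a group are separate animals, and p-values measure the spread between libraries. In the main edgeR tests below that spread was estimated over the libraries of all 5 groups, draining nodes included. Live non-draining A, B and C kept 3643, 1718 and 1977 cells, against 4806, 3238, 3356 and 3177 cells in naive A to D (in this order throughout), and summed to 11732665 to 24790181 UMIs, against 24094935 to 32918088. The median UMI count per cell was 3583 to 3737 in live non-draining and 3421 to 4810 in naive libraries. The median mitochondrial share was 5.72, 5.98 and 6.38% in live non-draining libraries and 5.15, 4.798, 4.70 and 5.42% in naive libraries, a difference of 1.01 percentage points (exact permutation test, two-sided p = 0.029, the smallest that 3 against 4 allows). The immediate early counts below were also taken with at most 10% mitochondrial UMIs. The labels also carry a library code that holds 49 for live non-draining A and B and naive B, C and D, and 40 for live non-draining C, naive A and all fixed non-draining libraries; what the code stands for is not stated.

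Lymph node stroma is made of fibroblastic reticular cells, which lay down the collagen conduits and secrete the chemokines that position lymphocytes, and of lymphatic endothelial cells (LECs), which line the sinuses through which lymph and cells pass. Within them, reticular cells of the T zone (TRC), the margin (MRC), the medulla (MedRC) and the vessels (PRC), follicular dendritic cells (FDC) and activated stroma (ActSC) are told apart by their markers, as are LECs of the sinus ceiling (cLEC), floor (fLEC), medulla (MedLEC) and cortex (CorLEC). Immediate early genes are switched on within minutes of a stimulus, among them growth factors, stretch or enzymatic dissociation, while interferon-stimulated genes are held on by type I interferon signalling. Cells were clustered and clusters named "X-like" from marker lists, and 18 named classes with at least 10 cells in each library that entered the fit were tested.

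The composition of the contralateral node differed from naive nodes in plasma cells, B cells, 2 unnamed myeloid clusters and several stromal classes. Of 27 shares tested, 9 differed (edgeR quasi-likelihood test on cell counts, Benjamini-Hochberg adjusted p under 0.05), and by an exact permutation test over libraries, two-sided, none passed after the same adjustment (smallest adjusted p = 0.110, at 7 shares that tied). Plasma cell-like cells, the antibody-secreting cells, made up 4.14, 1.57 and 1.77% of kept cells in live non-draining nodes, against 0.333, 0.618, 0.566 and 0.567% in naive nodes (log2 fold change 2.40, SE 0.31, adjusted p = 1.41e-05). All live values lay above all naive ones, and the A library, with 151 plasma cell-like cells, stood highest. B cell-like cells made up 11.8, 13.4 and 13.3% against 7.57, 9.17, 8.28 and 9.03% (log2 fold change 0.59, SE 0.10, adjusted p = 1.79e-04), again without overlap. Within B cell-like cells, the cluster with the proliferation gene Mki67 among its leading genes took 34.6 to 41.8% in live non-draining nodes, against 21.6 to 26.4% in naive nodes.

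A pair of myeloid clusters that did not meet the naming rule were also larger. Cluster 11, led by Retnla, Ly6c2 and S100a8, averaged 3.97% in live non-draining and 2.07% in naive nodes (log2 fold change 0.95, SE 0.16, adjusted p = 1.79e-04), and cluster 14, led by Csf3r and Adgre4, averaged 4.36% and 2.17% (log2 fold change 1.02, SE 0.12, adjusted p = 3.65e-06). In both clusters every live non-draining library exceeded every naive one. T cell-like, dendritic cell-like and macrophage/monocyte-like shares were not called, at 5.33 against 6.99%, 18.9 against 17.6% and 1.78 against 2.09%.

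On the stromal side, fibroblastic cells were fewer among kept cells at 19.5, 20.2 and 20.0% against 22.9, 27.0, 27.9 and 26.4% (log2 fold change -0.39, SE 0.08, adjusted p = 9.63e-04). Pericyte-like cells, the contractile cells around vessels, were at 0.494, 1.05 and 0.809% against 3.14, 1.42, 1.85 and 1.61% (log2 fold change -1.499, SE 0.32, adjusted p = 9.81e-04). The groups did not overlap in either class, and the exact permutation test gave p = 0.057 for both. Among fibroblastic cells, FDC-like cells, which hold antigen for B cells in follicles, took 7.45, 10.95 and 9.34% in live non-draining nodes, against 2.82, 2.97, 2.67 and 3.58% in naive nodes (log2 fold change 1.56, SE 0.18, adjusted p = 8.58e-07). MedRC-like cells took 26.4, 22.8 and 27.3% against 35.4, 35.9, 33.0 and 36.8% (log2 fold change -0.45, SE 0.09, adjusted p = 1.85e-04). The TRC-like share averaged 26.4% against 22.3% (log2 fold change 0.25, adjusted p = 0.0193) and was no longer called without live non-draining A. LECs as a whole were at 20.6% against 21.6%, and none of the 4 LEC class shares was called.

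**Figure D1:**
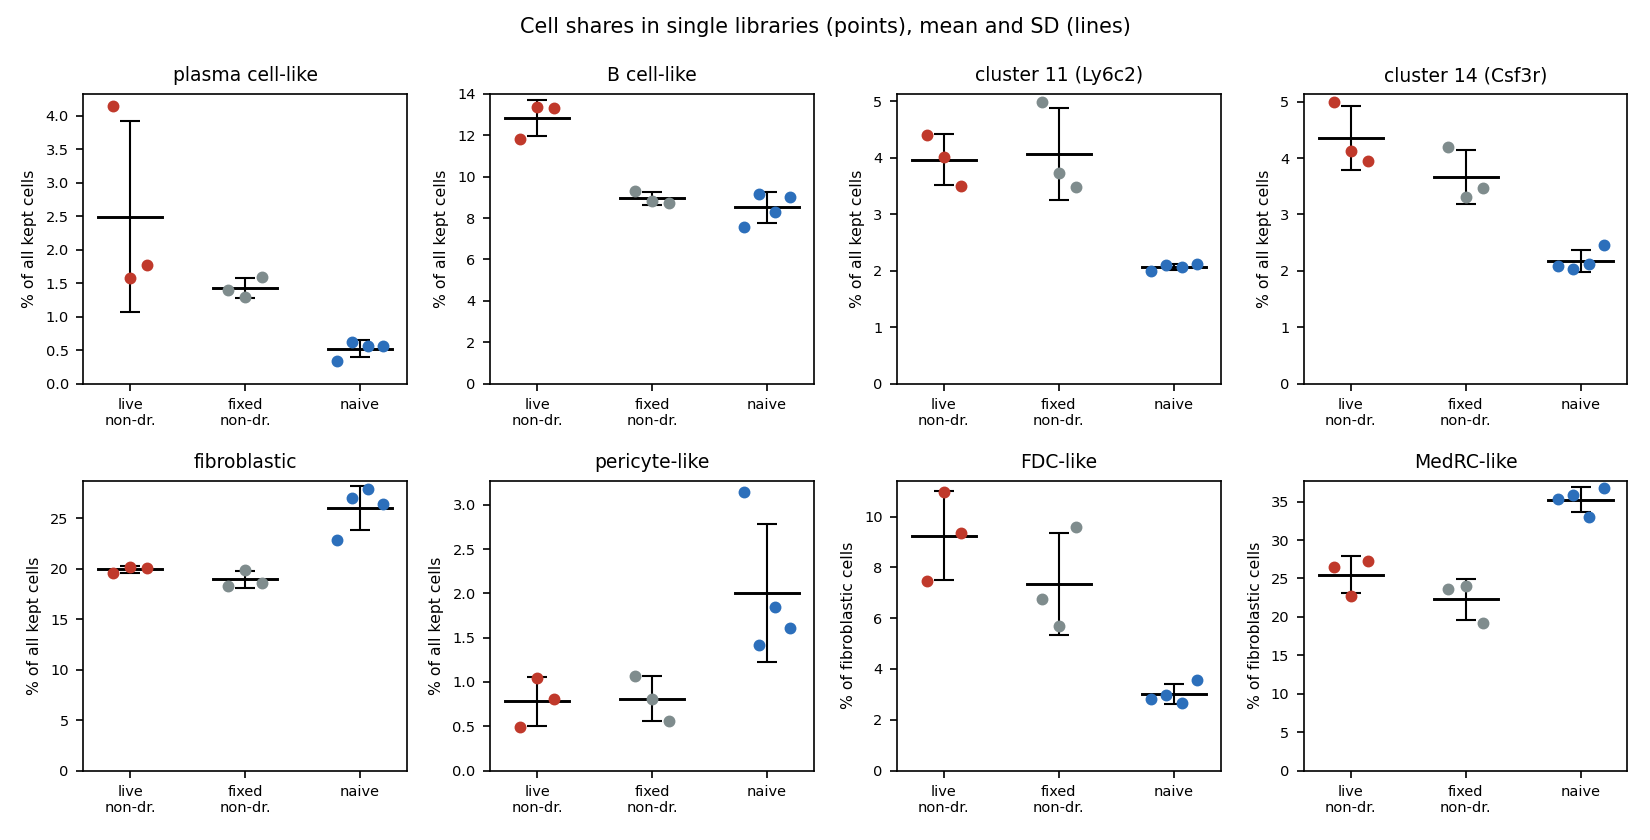
Shares of cell classes in each library, in percent of all kept cells (plasma cell-like, B cell-like, clusters 11 and 14, fibroblastic, pericyte-like) or of fibroblastic cells (FDC-like, MedRC-like). Points are libraries, lines the group mean and bars the SD, with live non-draining, fixed non-draining and naive nodes from left to right. Live non-draining libraries lie apart from naive ones in all 8 panels, and fixed non-draining libraries lie on the live side of the naive mean in each.

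The contralateral nodes of mice given fixed cells were compared by the same test. Plasma cell-like cells averaged 2.50% in live non-draining and 1.43% in fixed non-draining nodes (log2 difference 0.92, adjusted p = 0.0825), cluster 11 averaged 3.97% and 4.06%, and FDC-like cells 9.25% and 7.35% of fibroblastic cells. B cell-like cells did differ, at 12.8% against 8.95% (log2 difference 0.51, adjusted p = 0.00444), as did LECs at 20.6% against 34.6% (log2 difference -0.74, adjusted p = 6.83e-05) and dendritic cell-like cells at 18.9% against 14.8% (log2 difference 0.35, adjusted p = 0.00444). All fixed non-draining libraries carry code 40 and hold 4086 cells in all.

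Gene expression was then compared within each class on UMI counts summed per library (edgeR quasi-likelihood test over all 16 libraries, Benjamini-Hochberg adjusted p under 0.05 as the call), with levels given as CPM, the UMI count of a gene relative to the TMM-scaled total of its library and class. In TRC-like cells 54 of 12110 genes were higher (0.446%) and 14 lower (0.116%), in MRC-like cells 32 (0.284%) and 13 (0.116%) of 11255, and in MedRC-like cells 46 (0.408%) and 9 (0.0799%) of 11265. PRC-like cells, with 12 to 44 cells per live non-draining library, gave 2 (0.0254%) and 5 (0.0636%) of 7862. Among LECs, 63 (0.544%) and 18 (0.155%) of 11589 genes were called in cLEC-like, 29 (0.256%) and 13 (0.115%) of 11341 in fLEC-like, and 37 (0.373%) and 34 (0.343%) of 9907 in MedLEC-like cells. Among hematopoietic cells, B cell-like cells gave 108 (1.19%) and 86 (0.951%) of 9042, T cell-like cells 64 (1.8%) and 24 (0.674%) of 3561, dendritic cell-like cells 39 (0.33%) and 73 (0.617%) of 11824, and macrophage/monocyte-like cells 7 (0.0979%) and 4 (0.0559%) of 7150. The other 7 classes gave 20 calls among 37530 tests (0.0533%), of which BEC-like (blood endothelial), pericyte-like and plasma cell-like cells gave 0, with 222, 255 and 236 genes at an unadjusted p under 0.05 and 1, 2 and 2 calls by DESeq2.

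Several of these totals rest on single libraries. MedLEC-like calls, 71 in all, numbered 544 without live non-draining A, 12 without B, 17 without C, and 40, 17 and 41 without naive A, B and C. Dendritic cell-like calls, 112 in all, numbered 192, 28 and 20 without live non-draining A, B and C, and 59 and 54 without naive A and C. B cell-like calls, 194 in all, numbered 61, 71 and 106 without live non-draining A, B and C and 81 and 107 without naive B and D. The TRC-like count of 68 was 44 without live non-draining A, the fLEC-like count of 42 was 21 without live non-draining A and 64 without naive A, the MRC-like count of 45 ranged from 26 without live non-draining A to 88 without C, with 27 without naive A and 27 without naive D, and the T cell-like count of 88 was 56 without live non-draining C. PRC-like calls numbered 0 to 4 under every omission, macrophage/monocyte-like calls 3 without naive C, 4 without naive B and 5 without live non-draining B, and those of the other 7 classes 76 without live non-draining A and 13 without naive B. Counts in cLEC-like (55 to 80) and MedRC-like cells (39 to 53) stayed within 1.5 times their values of 81 and 55. Genes are therefore described first where their call stood in all 7 single-library omissions. In the 11 classes listed singly, live non-draining and naive libraries did not overlap for 85.7% (PRC-like) to 100% (macrophage/monocyte-like) of calls. Over all genes tested there this held for 7.72% (fLEC-like) to 14.2% (B cell-like), so lack of overlap adds little to a call.

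**Figure D2:**
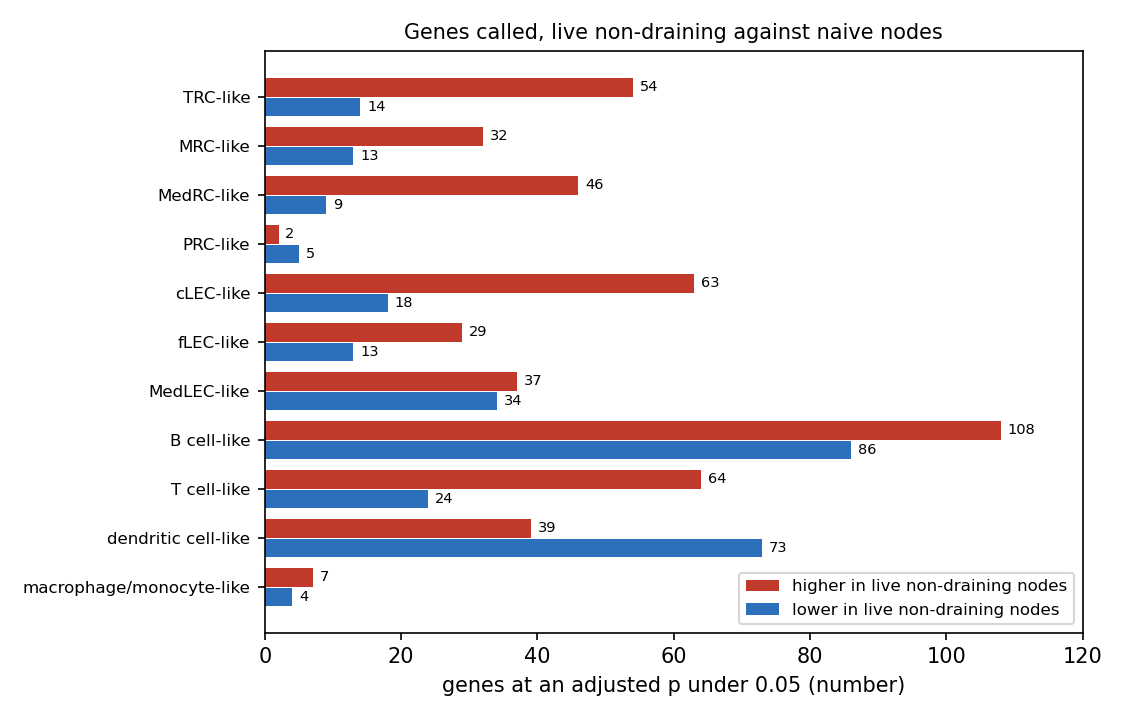
Number of genes called higher and lower in live non-draining than in naive nodes in 11 cell classes (edgeR, adjusted p under 0.05). Bars give counts of genes, from 7 in PRC-like to 194 in B cell-like cells, out of 3561 to 12110 genes tested per class.

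Immediate early genes were higher in several stromal classes. Of 359 gene and class pairs of a list of such genes, 58 were higher and 1 lower (16.2% higher, against 0.341% of all 144436 pairs), and the list median was positive in 15 of 18 classes. In cLEC-like cells 16 of 23 members rose (list median 0.60), in MedRC-like cells 13 of 22 (0.68), in TRC-like cells 7 of 20 (0.46), in MRC-like cells 7 of 19 (0.51), in fLEC-like cells 5 of 22 (0.39), in MedLEC-like cells 4 of 22 (0.19) and in dendritic cell-like cells 4 of 23 (0.20), where the median over all genes tested lay between -0.01 and 0.03 in every class. B cell-like cells had none higher and 1 lower of 19 (median -0.21), and ActSC-like cells 0 of 23 (median -0.25). ActSC-like cells were named from Nr4a1, Fosb, Atf3 and Egr1, all members of this list, so their count cannot show whether that class changed. Summed over the list, cLEC-like cells held 18565 to 19151 CPM in live non-draining nodes and 11284 to 13586 CPM in naive nodes, and MedRC-like cells 3855 to 4828 CPM and 2337 to 2816 CPM.

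Dusp1, a phosphatase that switches MAP kinases off and is itself induced by them, was called in 6 classes, and in 3 of them, MRC-like, MedLEC-like and dendritic cell-like cells, the call was lost in 3, 3 and 4 of the 7 single-library omissions (adjusted p up to 0.126, 0.147 and 0.203). In cLEC-like cells it had 671, 569.9 and 679 CPM in live non-draining nodes, against 263, 317, 317 and 366 CPM in naive nodes (log2 fold change 1.03, SE 0.09, adjusted p = 2.66e-08). In MedRC-like cells it had 118, 127 and 159 CPM in live non-draining nodes, against 53.8, 53.7, 73.2 and 60.1 CPM in naive nodes (log2 fold change 1.16, SE 0.13, adjusted p = 2.12e-06), and in fLEC-like cells 332, 399 and 354 CPM in live non-draining nodes, against 227, 159.9, 211 and 169 CPM in naive nodes (log2 fold change 0.89, adjusted p = 2.69e-04). In all 3 classes the lowest live non-draining library stood above the highest naive one. Egr1, a zinc finger transcription factor, had 471, 667 and 542 CPM in live non-draining nodes, against 244, 206, 289.95 and 259.9 CPM in naive nodes in MedRC-like cells (log2 fold change 1.15, SE 0.14, adjusted p = 3.50e-06), and 168, 192 and 157 CPM in live non-draining nodes, against 108, 85.4, 95.8 and 88.7 CPM in naive nodes in TRC-like cells (log2 fold change 0.86, adjusted p = 0.00215). In FDC-like cells Egr1 had 154, 104 and 211 CPM in live non-draining nodes, against 10.3, 25.1, 10.4 and 53.6 CPM in naive nodes (log2 fold change 2.60, adjusted p = 0.0105), from 37 to 53 cells per live library, and the call was lost without live non-draining C, naive A or naive B (adjusted p up to 0.125).

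The AP-1 subunits Fos and Fosb moved with them. Fos had 3187, 3155 and 3301 CPM in live non-draining nodes, against 1782, 2467, 1994 and 2036 CPM in naive nodes in cLEC-like cells (log2 fold change 0.64, SE 0.08, adjusted p = 6.30e-06), and Fosb had 811, 824 and 935 CPM in live non-draining nodes, against 371, 549.9, 377 and 396 CPM in naive nodes (log2 fold change 1.02, SE 0.09, adjusted p = 4.45e-08). In MRC-like cells Fos had 160.01, 135 and 213 CPM in live non-draining nodes, against 89.04, 112, 70.4 and 106 CPM in naive nodes (log2 fold change 0.84, adjusted p = 0.00874), and in fLEC-like cells 1776, 1996 and 1707 CPM in live non-draining nodes, against 1208, 1219.7, 1333 and 896 CPM in naive nodes (log2 fold change 0.65, adjusted p = 4.47e-04). All these groups were apart. The zinc finger factor Klf4 rose in cLEC-like cells, with 1103, 1111 and 957 CPM in live non-draining nodes, against 548, 619.5, 587 and 611 CPM in naive nodes (log2 fold change 0.84, SE 0.08, adjusted p = 4.45e-08), as did Junb, another AP-1 subunit, in fLEC-like cells, with 680.4, 641 and 649 CPM in live non-draining nodes, against 416, 415, 394 and 327 CPM in naive nodes (log2 fold change 0.76, SE 0.09, adjusted p = 1.68e-05). Ier2, a rapidly induced nuclear protein, had 72.6, 82.95 and 84.6 CPM in live non-draining nodes, against 25.7, 27.02, 44.9 and 26.3 CPM in naive nodes in MedRC-like cells (log2 fold change 1.37, SE 0.21, adjusted p = 2.10e-04). Cyr61, a secreted matricellular protein and target of the YAP and serum response pathways encoded at chr3:145646976-145649981 of mm10, had 449, 307 and 636 CPM in live non-draining nodes, against 226, 248, 221 and 197 CPM in naive nodes in TRC-like cells (log2 fold change 1.05, SE 0.14, adjusted p = 1.01e-05) and 137, 173 and 213 CPM in live non-draining nodes, against 73.3, 84.6, 71.8 and 64.2 CPM in naive nodes in MRC-like cells (log2 fold change 1.20, SE 0.16, adjusted p = 1.02e-04). The Notch effector Hes1 had 291, 246 and 435 CPM in live non-draining nodes, against 207, 169.5, 198 and 159.8 CPM in naive nodes in fLEC-like cells (log2 fold change 0.78, SE 0.14, adjusted p = 0.00299). The calls given with values here for Fos, Fosb, Klf4, Junb, Ier2, Cyr61 and Hes1 stood in every single-library omission, as did those of Dusp1 in cLEC-like, MedRC-like and fLEC-like cells and of Egr1 in MedRC-like and TRC-like cells. The call of Fos in TRC-like cells was lost in 5 omissions (adjusted p up to 0.341), that of Fosb there without live non-draining C (adjusted p = 0.0786), that of Btg2 in MedRC-like cells without live non-draining C (adjusted p = 0.181) and that of Zfp36 in fLEC-like cells without live non-draining A (adjusted p = 0.263).

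**Figure D3:**
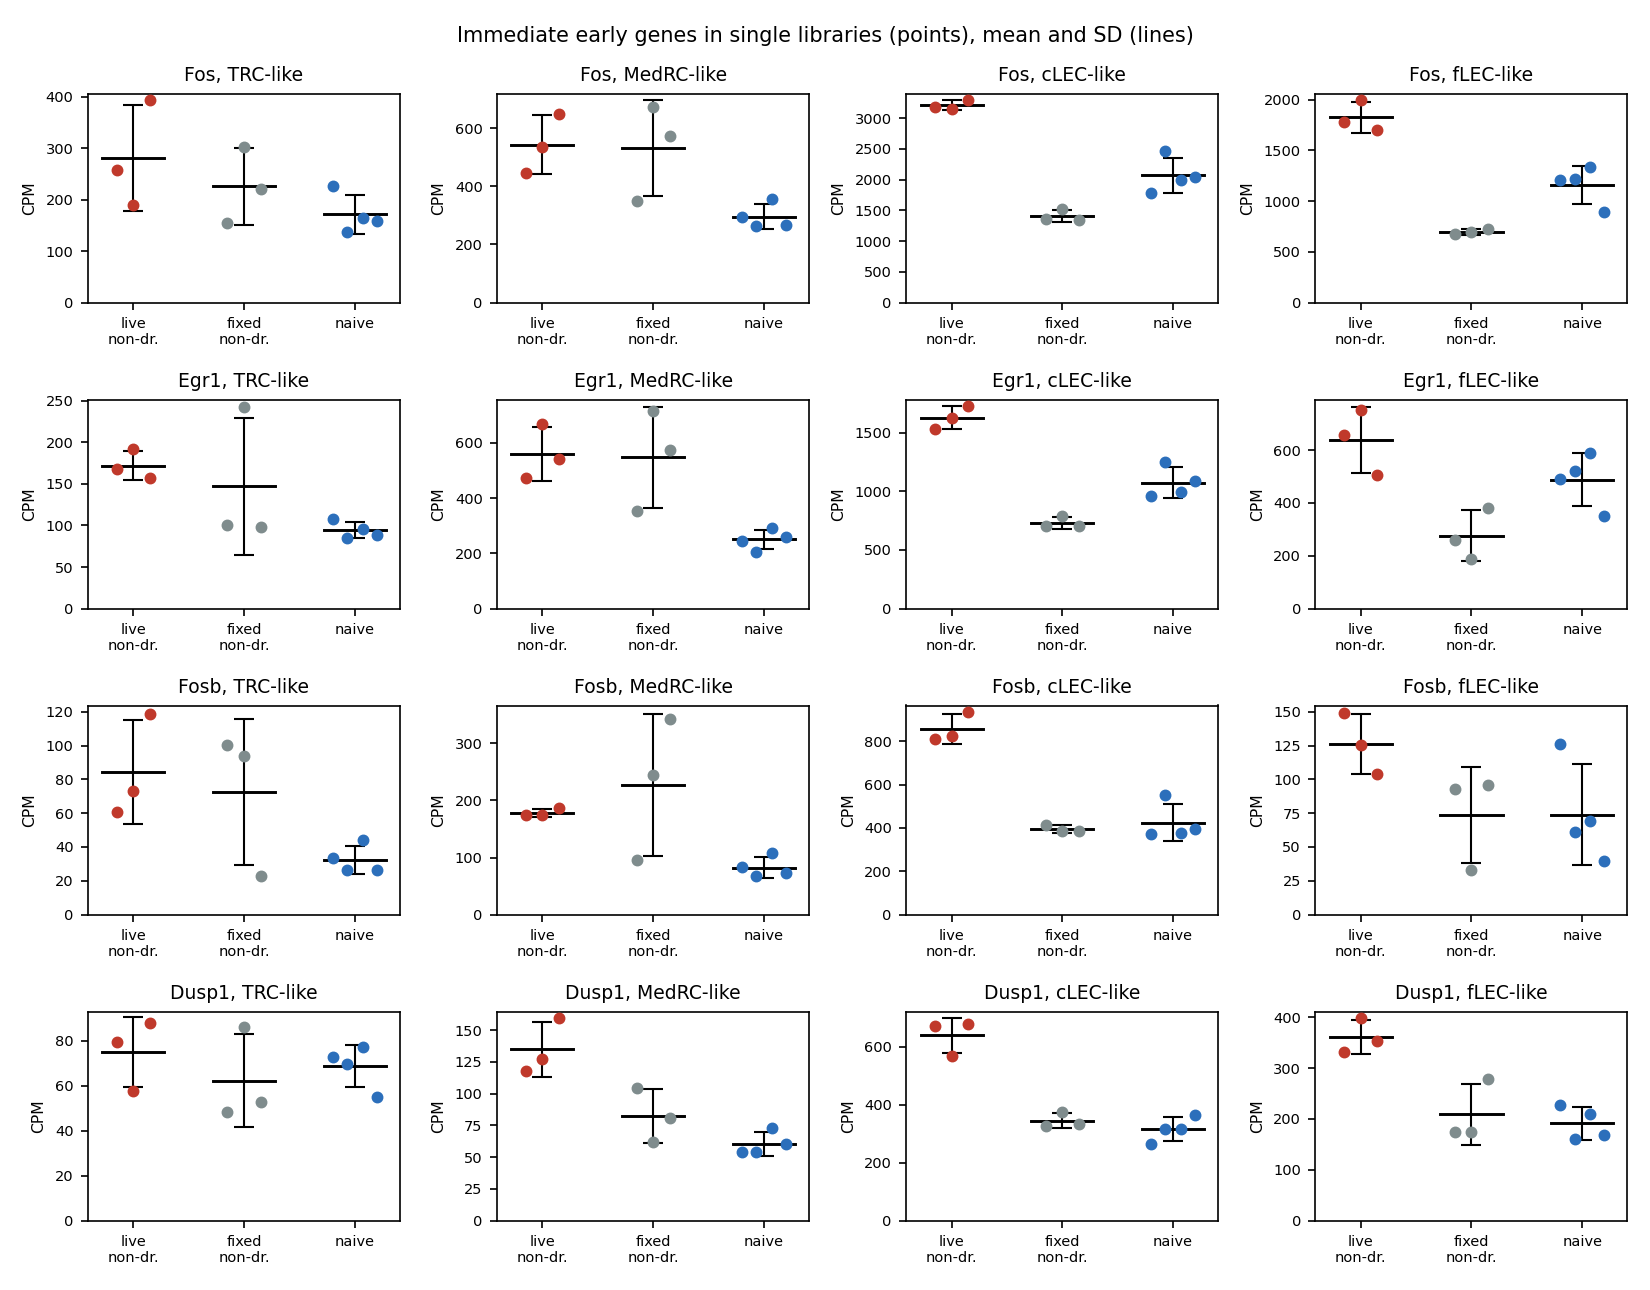
CPM of Fos, Egr1, Fosb and Dusp1 in TRC-like, MedRC-like, cLEC-like and fLEC-like cells. Points are libraries and lines group means, with live non-draining, fixed non-draining and naive nodes from left to right. In cLEC-like and fLEC-like cells fixed non-draining libraries lie near or below naive ones, with Fos at 1341 to 1525 CPM in cLEC-like cells.

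The same list was set against the fixed non-draining nodes, and whether classes differ from each other in this was not tested. In cLEC-like cells 20 of 23 list members differed from fixed non-draining nodes (list median difference 0.97) where 220 of all 11589 genes did (1.9%), and in fLEC-like cells 15 of 22 did (median 0.94) where 79 of 11341 genes did (0.697%). Fos in cLEC-like cells had 3187, 3155 and 3301 CPM in live non-draining and 1365, 1525 and 1341 CPM in fixed non-draining nodes (log2 difference 1.19, adjusted p = 9.54e-11). In TRC-like, MRC-like and MedRC-like cells no member of the list differed from fixed non-draining nodes, with median differences of 0.16, 0.01 and 0.26. Over all genes, 24 differed in TRC-like (0.198%), 17 in MRC-like (0.151%) and 80 in MedRC-like cells (0.71%). The summed level of the list in MedRC-like cells was 3855 to 4828 CPM in live non-draining and 2872 to 5091 CPM in fixed non-draining nodes, and the ranges overlapped.

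The immediate early genes also moved with the make-up of the classes. The cLEC-like class is made of several clusters, and the one led by Ier2, Egr1 and Fos took 38.6 to 40.9% of it in live non-draining and 25.8 to 32.0% in naive nodes, while the one led by Ackr4, Dkk2 and Prss23 took 14.5 to 26.2% and 28.4 to 35.8%. When only the largest cluster of each class was kept, 26 of 347 pairs were higher, 1 of 21 in cLEC-like, 9 in MedRC-like and 9 in TRC-like cells. In a further setting the live non-draining and naive groups held only code 49 libraries, while the other groups in the fit kept all of theirs. Among code 49 libraries in this sense 38 of 364 pairs were higher, 12 of them in cLEC-like and 10 in MedRC-like cells. Without live non-draining C 38 of 367 were, and with at most 10% mitochondrial UMIs 50 of 347 were. Whether the genes set the clusters or the clusters the gene levels cannot be told apart.

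The promoters of 2 of these genes show motifs through which such genes are known to be induced. From RefSeq (GRCm38.p6), the stretch of 250 bases before to 50 after the start of Dusp1 (chr17:26508423-26508722, minus strand) holds 1 cyclic AMP response element, TGACGTCA, in capitals, 143 bases before the start, and that of Zfp36 (chr7:28379179-28379478, minus strand) holds 1 serum response (CArG) box, in capitals, 58 bases before the start. Zfp36 encodes an RNA-binding protein that shortens the life of cytokine transcripts.
Dusp1: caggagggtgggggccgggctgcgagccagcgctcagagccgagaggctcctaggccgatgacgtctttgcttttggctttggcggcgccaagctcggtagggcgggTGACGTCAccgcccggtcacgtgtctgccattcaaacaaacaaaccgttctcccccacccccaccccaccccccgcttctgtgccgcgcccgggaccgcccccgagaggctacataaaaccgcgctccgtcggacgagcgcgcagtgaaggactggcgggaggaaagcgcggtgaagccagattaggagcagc
Zfp36: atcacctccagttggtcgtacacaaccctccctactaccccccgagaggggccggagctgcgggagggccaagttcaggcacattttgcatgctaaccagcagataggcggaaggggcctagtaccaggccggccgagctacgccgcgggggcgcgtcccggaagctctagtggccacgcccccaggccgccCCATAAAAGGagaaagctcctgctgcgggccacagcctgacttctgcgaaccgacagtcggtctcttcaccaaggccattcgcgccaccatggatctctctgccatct
Each motif was searched on both strands, and each was in 2 of the 20 promoters of the list that matched (10%), against 1.79% and 1.63% of 32851 promoters. A match describes letters and not binding.

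Some interferon-stimulated genes were lower in medullary and floor LECs, and 2 were higher in TRC-like cells. Of 311 pairs of a type I interferon list, 2 were higher and 12 lower (3.86% lower, against 0.208% of all pairs). In MedLEC-like cells 5 of 25 members were lower and all 25 had a negative fold change (median -0.68), in fLEC-like cells 2 of 25 were lower and all 25 were negative (median -0.55), and in B cell-like cells 3 of 19 were lower (median -0.68). In TRC-like cells 2 of 24 were higher and none lower (median 0.26). Summed over the list, MedLEC-like cells held 2631 to 2889.9 CPM in live non-draining, 3099.9 to 5295 CPM in fixed non-draining and 4072 to 4538 CPM in naive nodes. TRC-like cells held 1164 to 1313, 988 to 1171 and 958 to 1084 CPM in that order.

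Rtp4, an interferon-induced chaperone of membrane receptors, had 41.8, 47.1 and 49.3 CPM in live non-draining nodes, against 78.9, 118, 101 and 84.5 CPM in naive nodes in MedLEC-like cells (log2 fold change -1.08, SE 0.18, adjusted p = 0.00428), a call that stood in every single-library omission. Isg15, a ubiquitin-like modifier, had 167, 114 and 194 CPM in live non-draining nodes, against 297, 394, 391 and 417 CPM in naive nodes (log2 fold change -1.21, SE 0.22, adjusted p = 0.00623), and without live non-draining B its adjusted p was 0.068. Ifi27l2a, a small interferon-induced membrane protein, had 214, 66.9 and 122 CPM in live non-draining nodes, against 505, 444, 363 and 534 CPM in naive nodes in MedLEC-like cells (log2 fold change -1.69, adjusted p = 0.01), a call lost without live non-draining B or C (adjusted p up to 0.0772). Ifit1, which binds foreign RNA caps, had 53.8, 37.2 and 83.2 CPM in live non-draining nodes, against 173, 162, 114 and 131 CPM in naive nodes (log2 fold change -1.30, adjusted p = 0.0292), and was lost without live non-draining B, naive A or naive B (adjusted p up to 0.159). Naive libraries were uniformly above live ones for all 4 genes. Groups lay apart for 95.8% of MedLEC-like calls and for 12.2% of all genes tested in that class. Slfn2, a Schlafen family gene induced by interferon, had 44.1, 33.5 and 57.04 CPM in live non-draining nodes, against 82.2, 79.4, 99.8 and 113 CPM in naive nodes in fLEC-like cells (log2 fold change -1.05, SE 0.15, adjusted p = 2.69e-04), and this call also stood throughout.

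In TRC-like cells Ifi27l2a was instead higher, with 142, 207 and 149.9 CPM in live non-draining nodes, against 63.7, 63.2, 69.6 and 36.8 CPM in naive nodes (log2 fold change 1.48, SE 0.18, adjusted p = 3.74e-06), and fixed non-draining nodes had 114, 229.8 and 113 CPM. This call stood in all omissions. Ifi44, another interferon-induced gene, had 7.83, 27.1 and 26.6 CPM in live non-draining nodes, against 7.45, 5.54, 6.78 and 5.86 CPM in naive nodes in TRC-like cells, where live non-draining A lay close to naive libraries (log2 fold change 1.497, adjusted p = 0.0196), and was lost in 4 of 7 omissions (adjusted p up to 0.199). Ifi27l2a was also called lower in PRC-like, fLEC-like and B cell-like cells, and each of these calls was lost in 5 of 7 omissions (adjusted p up to 0.195, 0.203 and 0.145). In the largest B cell-like cluster alone its log2 fold change was 0.10. Whether its difference from naive nodes itself differs between classes was not tested.

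**Figure D4:**
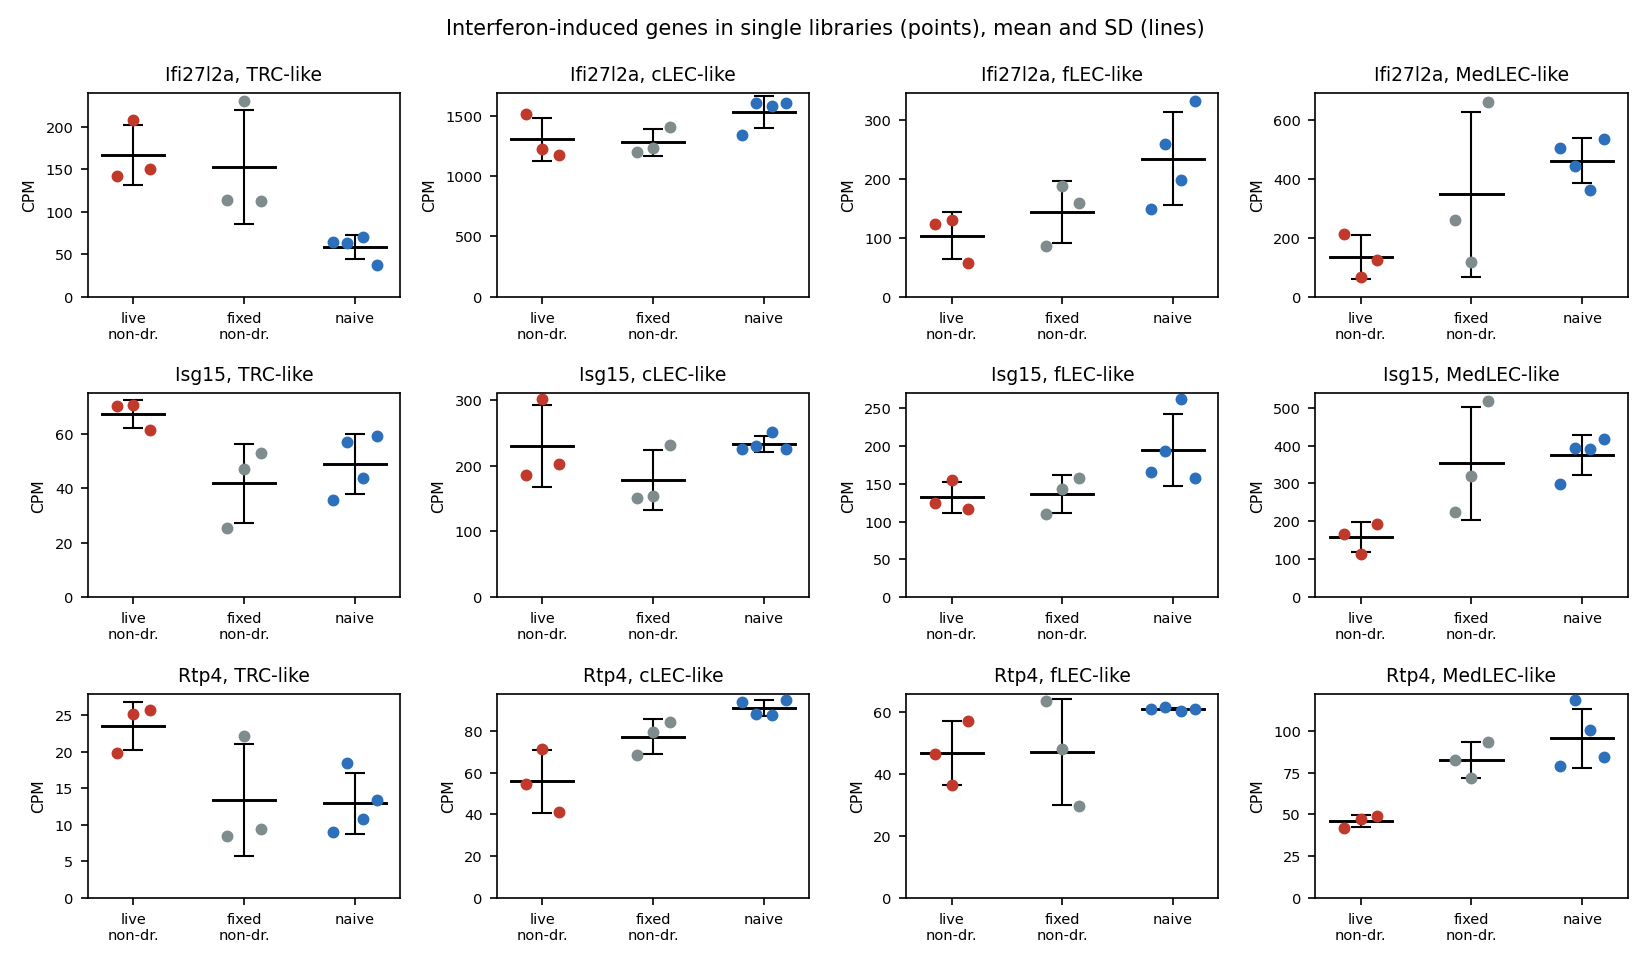
CPM of Ifi27l2a, Isg15 and Rtp4 in TRC-like, cLEC-like, fLEC-like and MedLEC-like cells. Points are libraries and lines group means, with live non-draining, fixed non-draining and naive nodes from left to right. Ifi27l2a lies above naive libraries in TRC-like cells and below them in fLEC-like and MedLEC-like cells of live non-draining nodes.

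Live draining nodes, beside the tumor, had higher levels of these genes than live non-draining nodes. Between live draining and live non-draining nodes the log2 difference of Isg15 in MedLEC-like cells was 2.22, adjusted p = 4.26e-08, and that of Rtp4 was 1.73, adjusted p = 4.26e-08. The summed list was 6239 to 7976 CPM in live draining and 2631 to 2889.9 CPM in live non-draining nodes in MedLEC-like cells, and 5512 to 6248 CPM and 2174 to 2273 CPM in fLEC-like cells. In that comparison 21.6% of all genes tested in MedLEC-like, 24% in fLEC-like and 5.92% in TRC-like cells were called. The study states that draining and contralateral nodes were collected from the same mice, and the fit did not pair them. Against fixed non-draining nodes 31 genes differed in MedLEC-like cells (0.313%), Isg15 among them (log2 difference -1.09, adjusted p = 0.0377).

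The MedLEC-like cluster led by Rsad2 and Ifit1 to Ifit3 took 10.9 to 28.8% of the class in live non-draining and 25 to 35.5% in naive nodes, overlapping ranges, and its part in the list's values was not tested. With only the largest cluster of each class 3 pairs of the list were lower, and none of 13 in MedLEC-like cells. Leaving out live non-draining B left 3 lower pairs, 1 of them in MedLEC-like cells, and among code 49 libraries there were 5.

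The interferon-stimulated response element (ISRE, searched as GAAANNGAAA on both strands) was in the stretch of 250 bases before to 50 after the start of 11 of 19 matched list members (57.9%), against 3.44% of 32851 promoters. Isg15 (chr4:156200769-156201068, minus strand) holds 3 overlapping matches, 78, 72 and 66 bases before the start, and Ifit1 (chr19:34640639-34640938, plus strand) holds 2, at 104 and 85 bases, shown in capitals because both genes are described above in MedLEC-like cells.
Isg15: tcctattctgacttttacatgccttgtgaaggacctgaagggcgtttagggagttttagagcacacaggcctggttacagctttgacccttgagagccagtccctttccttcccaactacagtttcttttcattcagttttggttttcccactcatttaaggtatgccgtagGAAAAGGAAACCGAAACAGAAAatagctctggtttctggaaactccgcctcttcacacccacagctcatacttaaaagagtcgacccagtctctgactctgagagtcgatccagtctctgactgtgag
Ifit1: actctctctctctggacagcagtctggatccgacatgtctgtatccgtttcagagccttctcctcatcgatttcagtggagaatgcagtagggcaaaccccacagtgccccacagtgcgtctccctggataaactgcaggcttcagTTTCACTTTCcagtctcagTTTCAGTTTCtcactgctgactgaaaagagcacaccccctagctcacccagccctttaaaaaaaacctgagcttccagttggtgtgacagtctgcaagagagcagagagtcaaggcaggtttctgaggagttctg
No match of the immediate early motifs was found in this list, nor of the ISRE in the immediate early list.

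MedLEC-like cells also differed in the chemokine gene Ccl20 and in some genes of an NF-kB list. Ccl20, the ligand of CCR6 on B cells and innate-like lymphocytes encoded at chr1:83116766-83119167 of mm10, had 283, 401 and 411 CPM in live non-draining nodes, against 116, 97.7, 69.8 and 68.9 CPM in naive nodes (log2 fold change 2.01, SE 0.35, adjusted p = 0.00486), and fixed non-draining nodes had 24.2, 117 and 11.97 CPM (log2 difference 2.93, adjusted p = 0.00119). Nfkbia, the inhibitor that NF-kB induces to limit itself, had 579, 652 and 773 CPM in live non-draining nodes, against 397, 421, 371 and 407 CPM in naive nodes (log2 fold change 0.74, SE 0.11, adjusted p = 0.00419). Both genes were higher in each live non-draining library than in any naive one, and both calls stood in all omissions. The neutrophil chemokine Cxcl1 (log2 fold change 1.16, adjusted p = 0.0288), the gelatinase Mmp9 (log2 fold change 0.90, adjusted p = 0.031) and the apoptosis inhibitor Birc3 (log2 fold change 0.52, adjusted p = 0.0347) were called higher too, but these calls were lost in 4, 5 and 5 of 7 omissions (adjusted p up to 0.436, 0.426 and 0.372), with log2 fold changes of 0.69 to 1.36, 0.56 to 1.11 and 0.34 to 0.64. Over all classes 6 of 215 pairs of the NF-kB list were higher and none lower (2.79% higher, against 0.341% of all pairs). Ccl20 and Mmp9 are not members of that list. The MedLEC-like cluster led by Gdf15, Bag3 and Hspa1a took 46.6 to 69.6% of the class in live non-draining nodes and 42.1 to 51.1% in naive nodes.

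TRC-like cells, with 93 to 194 cells per live non-draining library, changed in few genes. Glycam1, a mucin that presents ligands to L-selectin on high endothelial venules, had 173, 153 and 165 CPM in live non-draining nodes, against 78.97, 57.3, 74.1 and 63.2 CPM in naive nodes (log2 fold change 1.27, SE 0.11, adjusted p = 3.41e-09), and fixed non-draining nodes had 79.3, 56.1 and 50.8 CPM (log2 difference 1.33, adjusted p = 4.22e-06). Glycam1 also led the largest fLEC-like cluster. Cd200, which restrains myeloid cells through its receptor, had 144, 159 and 167 CPM in live non-draining nodes, against 95.7, 128, 102 and 105 CPM in naive nodes (log2 fold change 0.52, SE 0.10, adjusted p = 0.00461). Tppp3, a microtubule-associated protein, had 43.7, 36.97 and 32.8 CPM in live non-draining nodes, against 80.1, 70.96, 74.5 and 79.1 CPM in naive nodes (log2 fold change -0.96, SE 0.16, adjusted p = 0.00111) and 53.2, 111 and 69.6 CPM in fixed non-draining nodes. Flt3l, the growth factor of dendritic cells, was lower with 133, 141 and 128 CPM in live non-draining nodes, against 161, 167, 185 and 182 CPM in naive nodes (log2 fold change -0.37, SE 0.08, adjusted p = 0.0172), a change of small size that was lost without live non-draining A or C or naive C or D (adjusted p up to 0.119). Without live non-draining A, Galnt16, a mucin-type glycosyltransferase that was lower, was no longer called (adjusted p = 0.0673).

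Postn, a matricellular protein deposited with collagen and encoded at chr3:54361109-54391037 of mm10, was lower in 3 fibroblastic classes. In MedRC-like cells it had 398, 455 and 465 CPM in live non-draining nodes, against 707, 719.9, 700.1 and 603 CPM in naive nodes (log2 fold change -0.64, SE 0.11, adjusted p = 0.00117), and in TRC-like cells 49.7, 46.9 and 30.2 CPM in live non-draining nodes, against 78.6, 94.98, 86.7 and 66.1 CPM in naive nodes (log2 fold change -0.90, SE 0.14, adjusted p = 4.36e-04), both without overlap and stable to omissions. In PRC-like cells it had 73.2, 42.3 and 57.1 CPM in live non-draining nodes, against 478, 373, 645 and 523 CPM in naive nodes (log2 fold change -3.03, SE 0.55, adjusted p = 0.0251), with 242, 1716 and 601 CPM in fixed non-draining nodes, but the call was lost without any 1 of live non-draining A, B or C or naive C (adjusted p up to 0.136). No PRC-like call stood without live non-draining C or without naive C, among them the proteoglycan Aspn (log2 fold change -2.53, adjusted p = 0.0411), the splicing factor Nova1 (log2 fold change -2.46, adjusted p = 0.0251) and the lipase inhibitor Angptl4 (log2 fold change -1.45, adjusted p = 0.0457), and against fixed non-draining nodes 20 of 7862 genes differed in PRC-like cells (0.254%).

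A list of collagens and other fibrillar matrix genes, Postn among them, was lower where called. Of 315 pairs, 0 were higher and 18 lower (5.71%, against 0.208% of all pairs), 2 of 26 in TRC-like, 2 of 26 in MRC-like, 1 of 27 in MedRC-like and 1 of 27 in PRC-like cells, with medians of -0.07, -0.23, -0.07 and -0.48. The MedRC-like and PRC-like calls and 1 of the TRC-like calls were Postn, described above. In MRC-like cells Col3a1 (log2 fold change -0.73, adjusted p = 0.0311) and Col6a3 (log2 fold change -0.68, adjusted p = 0.0339) were lower, calls lost in 6 and 5 of 7 omissions (adjusted p up to 0.255 for each). The remaining 12 calls were in hematopoietic classes, which are not known to make fibrillar collagen, with 7 of 22 in dendritic cell-like, 3 of 9 in T cell-like and 2 of 12 in B cell-like cells. The 7 fibroblastic markers summed to 50.9 to 78.9 CPM in dendritic cell-like cells of live non-draining and 123 to 267 CPM of naive nodes, to 143 to 207 and 387 to 543 CPM in T cell-like cells, where Pdgfrb was at 0 in all live non-draining libraries, and to 51.6 to 112 and 176 to 254 CPM in B cell-like cells. These markers thus moved the same way as the share of fibroblastic cells, and their part in the calls of this list in blood cells was not tested.

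MRC-like cells, which sit under the subcapsular sinus, held a cluster led by Hamp, Cxcl13 and Megf6, at 55.6 to 62.7% of the class in live non-draining and 31.2 to 41.8% in naive nodes, and a second at 37.3 to 44.4% and 58.2 to 68.8%. Ptn, a heparin-binding growth factor encoded at chr6:36714929-36810220 of mm10, had 98.95, 72.5 and 76.4 CPM in live non-draining nodes, against 218, 204, 195 and 182 CPM in naive nodes (log2 fold change -1.24, SE 0.15, adjusted p = 2.28e-05), and fixed non-draining nodes had 179.9, 129 and 115 CPM. Megf6, a protein of repeated EGF domains, had 90.5, 89.01 and 119 CPM in live non-draining nodes, against 49.3, 53.2, 45.7 and 65.9 CPM in naive nodes (log2 fold change 0.88, SE 0.16, adjusted p = 0.00459). Both calls stood in all omissions and both moved with the cluster mix. The hyaluronan synthase Has2 was lower, with 70.5, 44.5 and 106 CPM in live non-draining nodes, against 119.98, 129.6, 117 and 136 CPM in naive nodes (log2 fold change -0.79, adjusted p = 0.0415), but the call was lost in 5 of 7 omissions, with log2 fold changes of -1.05 to -0.57 (adjusted p up to 0.3).

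MedRC-like cells line the medullary cords, and 1 of their clusters took 16.5 to 24.1% of the class in live non-draining and 27.5 to 32.5% in naive nodes. Sostdc1, an antagonist of BMP and Wnt signalling, had 182, 169 and 199 CPM in live non-draining nodes, against 299.5, 296, 262 and 287 CPM in naive nodes (log2 fold change -0.64, SE 0.11, adjusted p = 4.64e-04), apart and stable. The acute phase gene Saa3 had 114, 40.6 and 31.1 CPM in live non-draining nodes, against 5.68, 3.51, 4.23 and 20.3 CPM in naive nodes (log2 fold change 3.06, adjusted p = 0.00937), a value that rested on live non-draining A, without which the adjusted p was 0.545; fixed non-draining nodes had 4.54, 0 and 209 CPM, 1 library high. Mt1, a metallothionein, had 162, 82.95 and 161 CPM in live non-draining nodes, against 83.2, 87.4, 69.8 and 93.9 CPM in naive nodes (log2 fold change 0.76, adjusted p = 0.00224), where B lay among naive values, and its call was lost without live non-draining A (adjusted p = 0.2).

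The clock gene Nr1d1, a heme-binding repressor under direct circadian control, was higher in 3 fibroblastic classes, and its values outside MRC-like cells were singled out after they were seen. In MedRC-like cells it had 28.8, 38.9 and 24.9 CPM in live non-draining nodes, against 10.4, 7.37, 3.81 and 7.14 CPM in naive nodes (log2 fold change 2.02, SE 0.28, adjusted p = 5.01e-05), with 11.3, 8.43 and 10.7 CPM in fixed non-draining nodes. In MRC-like cells it had 67.4, 31.3 and 63.4 CPM in live non-draining nodes, against 24.6, 28.5, 16.9 and 21.97 CPM in naive nodes (log2 fold change 1.27, adjusted p = 0.00459), and in TRC-like cells 17.5, 14.4 and 10.6 CPM in live non-draining nodes, against 5.59, 7.02, 5.87 and 8.79 CPM in naive nodes (log2 fold change 1.12, adjusted p = 0.0186). The MedRC-like call stood in all omissions, the MRC-like call was lost without live non-draining A (adjusted p = 0.158) and the TRC-like call without live non-draining A, naive A or naive C (adjusted p up to 0.380). In cLEC-like cells it had 20.4, 13.8 and 14.8 CPM in live non-draining nodes, against 9.72, 16.2, 16.6 and 20.1 CPM in naive nodes and was not called. Nr1d1 gave all 3 calls of the circadian list (1.63% of 184 pairs higher, against 0.341% of all pairs).

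In ceiling LECs a gene that marks part of the ceiling was lower. Dkk2, a Wnt antagonist, had 127, 85.2 and 119 CPM in live non-draining nodes, against 206, 159, 172 and 219.7 CPM in naive nodes (log2 fold change -0.74, SE 0.16, adjusted p = 0.0132) and 231, 279.99 and 177 CPM in fixed non-draining nodes. Without live non-draining B its adjusted p was 0.121. Dkk2 is among the leading genes of the cluster with Ackr4 and of the cluster led by Ier2, Egr1 and Fos. In live non-draining nodes the Ackr4 cluster took a smaller part of the class and the other a larger part, as given above. Adamtsl1, a secreted matrix protein, had 42, 87.7 and 35.4 CPM in live non-draining nodes, against 24.6, 23.04, 28.2 and 21.6 CPM in naive nodes, with B far above A and C (log2 fold change 1.08, adjusted p = 0.012), and was lost without B (adjusted p = 0.227). Rtp4 was lower with 54.7, 71.4 and 41.1 CPM in live non-draining nodes, against 94.1, 88.2, 87.5 and 94.8 CPM in naive nodes (log2 fold change -0.73, adjusted p = 0.00455), as was the scavenger receptor Msr1 (log2 fold change -0.92, adjusted p = 0.0453). The Rtp4 call was lost without live non-draining A or C (adjusted p up to 0.0615), and that of Msr1 in 6 of 7 omissions, with log2 fold changes of -1.32 to -0.67 (adjusted p up to 0.269). The summed fibroblastic markers were 54.5 to 85.4 CPM in live non-draining and 117 to 143 CPM in naive nodes in cLEC-like cells, beside which the complement gene C3, a fibroblastic transcript, was lower (log2 fold change -0.64, adjusted p = 0.0418), a call lost in 5 of 7 omissions, with log2 fold changes of -1.02 to -0.47 (adjusted p up to 0.274).

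Transcripts of immunoglobulins were higher in cells that do not make them. Igkc, the kappa light chain constant gene, was called in 8 classes and Ighm, the mu heavy chain, in 5. Of 103 pairs of the list, 19 were higher and 1 lower (18.4% higher, against 0.341% of all pairs). These pairs span all classes, with B cell-like and plasma cell-like cells, which do make immunoglobulin, among them. In cLEC-like cells Igkc had 207, 48.8 and 75.3 CPM in live non-draining nodes, against 37.5, 33.3, 31.7 and 30.1 CPM in naive nodes (log2 fold change 1.95, SE 0.26, adjusted p = 2.28e-05), and in TRC-like cells 76.9, 23.4 and 55 CPM in live non-draining nodes, against 26.1, 33.3, 26.6 and 27.2 CPM in naive nodes, where B lay below the naive libraries (log2 fold change 1.00, adjusted p = 0.00666). Live non-draining A, which had the most plasma cell-like cells, was highest in each. Without it 5 of 112 pairs of the list were higher, Igkc was no longer called in MedRC-like, TRC-like, fLEC-like, MedLEC-like, PRC-like and dendritic cell-like cells, and no Ighm call remained. Igkc remained called in cLEC-like and CorLEC-like cells.

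A sum of plasma cell markers did not move with it in cLEC-like and TRC-like cells. Such a sum cannot tell plasma cell transcripts from those that stromal cells make themselves. The 7 plasma cell markers summed to 146 to 165 CPM in live non-draining and 148 to 163 CPM in naive cLEC-like cells, to 213 to 219 and 199 to 239.6 CPM in TRC-like cells, and to 223 to 256 and 157 to 184 CPM in MedLEC-like cells, of which only the last lay apart. The immunoglobulin list summed to 97.9 to 403 CPM in live non-draining, 76.2 to 102 CPM in fixed non-draining and 62.4 to 90.3 CPM in naive cLEC-like cells. Ighg1 in cLEC-like cells had 42, 0 and 0 CPM against 0, 0, 0.503 and 0.502 CPM, a call made by live non-draining A alone.

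In B cell-like cells several calls stood in every omission. Ada, adenosine deaminase, had 48.6, 48.8 and 52.7 CPM in live non-draining nodes, against 21.1, 15.5, 21.8 and 16.9 CPM in naive nodes (log2 fold change 1.39, SE 0.28, adjusted p = 0.00973) and 32.5, 31.1 and 37.6 CPM in fixed non-draining nodes. Mcm6, a subunit of the replication helicase, had 152, 192 and 174 CPM in live non-draining nodes, against 98.9, 83.95, 113 and 82.8 CPM in naive nodes (log2 fold change 0.85, SE 0.15, adjusted p = 0.00364), and Mcm2 (log2 fold change 0.89, adjusted p = 0.00973) and the glycolytic enzyme Aldoa (log2 fold change 0.65, adjusted p = 0.0105) rose too. Ighg2b, the switched heavy chain IgG2b, had 303, 353 and 419 CPM in live non-draining nodes, against 218, 96.4, 156 and 43.95 CPM in naive nodes (log2 fold change 1.44, SE 0.26, adjusted p = 0.00628), with naive D lowest. The nucleolar GTPase Gnl3 was lower, with 46.1, 47.2 and 41.01 CPM in live non-draining nodes, against 85.7, 66.8, 78.2 and 87.9 CPM in naive nodes (log2 fold change -0.83, adjusted p = 0.0105). The share of the cluster with Mki67, given above, moved beside these genes. With only the other, larger B cell-like cluster kept, 6 of 4790 genes were called, and 2 of 124 main calls tested there remained. Fewer cells were fitted in that setting too, and the part of the cluster share alone was not tested. Among antigen presentation genes, 3 of 10 of the MHC class II list were higher, against 1.19% of all genes, with log2 fold changes of 0.52 for Cd74, 0.52 for H2-DMa and 0.45 for H2-Eb1. These calls did not stand, being lost in 3, 7 and 4 of 7 omissions (adjusted p up to 0.0726, 0.12 and 0.116). Against fixed non-draining nodes 6 of 9042 genes differed (0.0664%).

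T cell-like cells came from 1 cluster with a median of 810 UMIs per cell. With at most 10% mitochondrial UMIs, 7 of 1142 genes tested were called there, against 88 of 3561 in the main fit. Rpl35, a ribosomal protein gene, had 744, 660.01 and 834 CPM in live non-draining nodes, against 319, 416, 295 and 307 CPM in naive nodes (log2 fold change 1.16, SE 0.19, adjusted p = 4.61e-05) and 422, 382 and 171 CPM in fixed non-draining nodes. Of other ribosomal protein genes, for which no list was set, Rpl39, Rpl29, Rps27 and Rps28 rose by 1.09, 1.05, 1.04 and 0.94 on the log2 scale, and processed copies of ribosomal genes can share their reads. The stromal complement gene C3 had 243, 197 and 401 CPM in live non-draining nodes, against 676, 551, 512 and 580.3 CPM in naive nodes (log2 fold change -1.02, adjusted p = 3.22e-04) and 48.7, 42.5 and 114 CPM in fixed non-draining nodes, beside the lower fibroblastic markers given above. Against fixed non-draining nodes 67 of 3561 genes differed (1.88%).

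In dendritic cell-like cells the lower genes whose call stood in every omission included stromal genes. Apoe, a lipid carrier made by macrophages and stroma, had 169.98, 194 and 149 CPM in live non-draining nodes, against 365, 283, 397 and 356 CPM in naive nodes (log2 fold change -1.04, SE 0.12, adjusted p = 1.55e-05), C3 had 84.2, 61.5 and 73.7 CPM in live non-draining nodes, against 208, 144, 255 and 190.4 CPM in naive nodes (log2 fold change -1.41, SE 0.18, adjusted p = 5.29e-05), and the proteoglycan Dcn had 41.4, 34.6 and 39.8 CPM in live non-draining nodes, against 151, 67.7, 163 and 77.7 CPM in naive nodes (log2 fold change -1.55, adjusted p = 0.00255). Groups were apart for each, and the chemokine Cxcl12 (log2 fold change -1.67, adjusted p = 0.00237) and complement C1ra (log2 fold change -1.68, adjusted p = 0.00237) fell beside them. All 5 are made by fibroblastic cells, whose summed markers were lower in this class as given above. Fos, Egr1 and Dusp1 were higher by 0.52, 0.77 and 0.46 on the log2 scale. Fos and Egr1 were not called without live non-draining B (adjusted p = 0.126 and 0.0598), and Dusp1 was lost in 4 of 7 omissions, with log2 fold changes of 0.32 to 0.54. Against fixed non-draining nodes 778 of 11824 genes differed (6.58%).

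Macrophage/monocyte-like cells, here 1 cluster led by Ccl8, Cd209b and C1q genes as in medullary and subcapsular macrophages, had a lower Cd52, a small surface glycoprotein, with 183, 207 and 154 CPM in live non-draining nodes, against 326, 496, 469 and 434 CPM in naive nodes (log2 fold change -1.25, SE 0.20, adjusted p = 0.00674). The terminal complement gene C6 had 689, 555 and 578 CPM in live non-draining nodes, against 341, 222, 179 and 249 CPM in naive nodes (log2 fold change 1.29, adjusted p = 0.0271). Retnla, a product of alternatively activated cells, and Lyz2, lysozyme, were lower (log2 fold change -3.66, adjusted p = 0.0422 and log2 fold change -1.26, adjusted p = 0.0293). These calls were each lost in 5 of 7 omissions (adjusted p up to 0.251 and 0.192), the log2 fold change of Retnla running from -6.70 to -2.96, and C6 was lost without live non-draining A, naive B or naive C (adjusted p up to 0.0913). Against fixed non-draining nodes 8 of 7150 genes differed (0.112%).

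Some heat shock genes were lower in ActSC-like cells, where 8 genes were called in all, against 0 without live non-draining C and 0 among code 49 libraries. The cochaperone Dnajb1 had 1008, 980.2 and 721 CPM in live non-draining nodes, against 2303, 1965, 1532 and 1800 CPM in naive nodes (log2 fold change -1.07, SE 0.18, adjusted p = 0.00908) and 421, 433 and 469 CPM in fixed non-draining nodes, so that live non-draining nodes lay between the other groups. Hspa1a and Hsph1 were lower, with log2 fold changes of -0.97 and -0.89, and Hspa1a shares reads with a near-identical neighbor. Without live non-draining C the adjusted p of Dnajb1 was 0.0787 and that of Hspa1a 0.0927, and Hsph1 was lost in 6 of 7 omissions (adjusted p up to 0.451). The heat shock list summed to 14952 to 17115 CPM in live non-draining, 8606 to 9832 CPM in fixed non-draining and 23175 to 28423 CPM in naive nodes. Against fixed non-draining nodes 18 of 6053 genes differed in ActSC-like cells (0.297%) and 9 of 5875 in FDC-like cells (0.153%), and Egr1 was called in FDC-like cells (log2 difference 4.79, adjusted p = 0.0091).

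Besides these groups, the mitochondrial gene mt-Nd3, a complex I subunit, was higher in 8 classes. The calls in TRC-like, MedRC-like, MedLEC-like and B cell-like cells stood in all omissions, while those in CorLEC-like, dendritic cell-like, FDC-like and ActSC-like cells were lost in 5, 4, 3 and 1 of 7 (adjusted p up to 0.64, 0.156, 0.129 and 0.0607). In TRC-like cells it had 120.2, 90.2 and 128 CPM in live non-draining nodes, against 42.1, 65.4, 66.8 and 66.9 CPM in naive nodes (log2 fold change 0.93, SE 0.16, adjusted p = 0.00118), and in B cell-like cells 534, 607 and 643 CPM in live non-draining nodes, against 239, 302, 156 and 289 CPM in naive nodes (log2 fold change 1.26, adjusted p = 1.89e-04). Of 223 pairs of mitochondrially encoded respiratory genes 9 were higher, 8 of them mt-Nd3, and 5 were lower. These are 4.04% and 2.24%, against 0.341% higher and 0.208% lower of all pairs. In T cell-like cells mt-Co1, mt-Nd5 and mt-Nd2 were lower, with log2 fold changes of -0.46, -0.46 and -0.38, and those of mt-Nd5 and mt-Nd2 were each lost in 3 of 7 omissions (adjusted p up to 0.166 and 0.164). Pisd-ps2, a pseudogene with near-identical copies whose reads can be split between them, was higher in 4 classes, as 22.8, 32.8 and 23.1 against 6.62, 7.67, 10.95 and 8.27 CPM in dendritic cell-like cells, where the call stood in all omissions; in MRC-like, MedLEC-like and TRC-like cells it was lost in 1, 1 and 2, live non-draining C among them each time.

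Among genes the study followed in draining nodes, the chemokines Ccl19, Ccl21a, Cxcl13, Cxcl9 and Cxcl10, Il33, Ldha, Pkm, Fn1, Mmp2, Mmp9 and Ccl20 gave no call in TRC-like, MRC-like or fLEC-like cells of the contralateral node. Cxcl9, a CXCR3 ligand, had 685, 1359.7 and 913 CPM in live non-draining nodes, against 842, 643, 598 and 634 CPM in naive nodes in TRC-like cells (log2 fold change 0.52, adjusted p = 0.0968), and was called when live non-draining A or naive A was left out (adjusted p = 0.0054 and 0.028). A value that misses the threshold does not show that levels were equal.

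**Figure D5:**
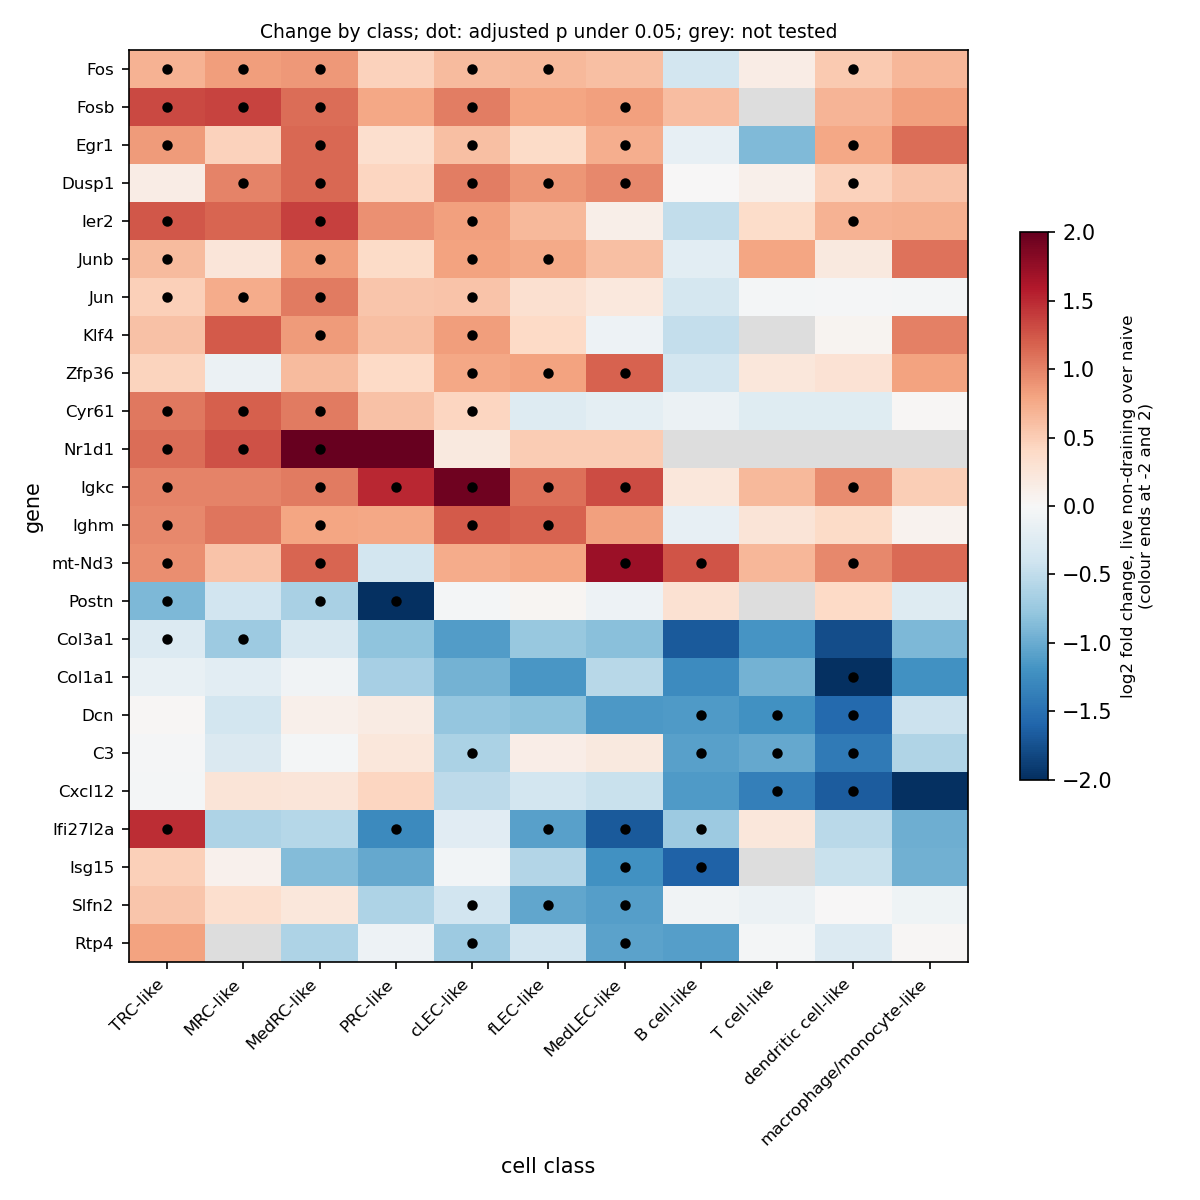
Log2 fold change of live non-draining over naive nodes for 24 genes (rows) in 11 cell classes (columns), colored from -2 to 2. A dot marks an adjusted p under 0.05 and grey a gene not tested in that class. Immediate early genes are positive in most stromal classes, Postn negative in TRC-like, MRC-like, MedRC-like and PRC-like cells, and Ifi27l2a positive in TRC-like and negative in MedLEC-like cells.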

How the data were processed

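Single-cell suspensions of PDPN-selected lymph node cells were sequenced on 16 libraries of 10x Genomics 3′ v3 chemistry. The deposited files hold whole UMI counts per gene and barcode, made by the authors with Cell Ranger 3.0.1 on mm10. Barcodes with 200 to 6000 genes and at most 30% mitochondrial UMIs were kept, 50386 of 68741; libraries shared 0.931 to 1.60% of their barcodes with others. Counts were normalised with SCTransform (Seurat 5.3.0, sctransform 0.4.2, R 4.3.3) using 2000 variable genes, and cells were clustered (20 principal components, resolution 0.8), fibroblastic cells and LECs once more on their own. Clusters were named from marker lists by a scoring rule settled after the clusters were seen, and clusters below it stayed unnamed, so classes may differ from those of the study. Scrublet marked 44 cells (0.0873%), too few to have worked; the 1464 highest scores (2.91%) were kept here and removed in an alternative.

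UMI counts were summed per library and class (at least 10 cells) and fitted over all 16 libraries and 5 groups with edgeR 4.0.16 (filterByExpr, TMM, quasi-likelihood test), with Benjamini-Hochberg adjustment over all genes of a class. The main contrast was live non-draining minus naive, and DESeq2 1.42.0 was an alternative. Shares were fitted as cell counts in the same way and tested by exact permutation. The members and lists were chosen with earlier results of these data known. Named genes were, in 9 classes, the 4 largest rises and 4 largest falls among calls with a mean of at least 5 log2 CPM and groups apart; the 10 genes called higher and the 10 called lower in most classes; up to 3 members of each gene list in the class with most calls; and 12 genes the study followed. Ifit1, Ifi44, Col3a1, Col6a3 and Nr1d1 outside MRC-like cells were chosen after their values were seen. In simulated data for TRC-like, MedRC-like, cLEC-like and B cell-like cells, 99, 91, 90 and 79% of genes changed 2-fold were recovered. Of the calls there, 5.7, 5.4, 2.6 and 7.4% were of unchanged genes. Counts were drawn with the dispersions of the fit itself, and changed genes only from those above a floor of mean CPM. Recovery of genes with lower CPM was therefore not measured. Gene positions were taken where the versioned ID matched the annotation (40606 of 48440). Library medians of 3421 to 4810 UMIs per cell limit what can be seen of low genes. Plots were drawn with matplotlib 3.10.9 in Python 3.11.15.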

Additional observations from a re-analysis of the deposited data

Results flagged for a closer look

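The contralateral nodes of mice with a live tumor and of mice given fixed cells were set against the same naive nodes, and the named genes and shares given here differed between them (edgeR quasi-likelihood test, adjusted p under 0.05). The genes were picked on live non-draining against naive nodes, which shares its live libraries with this comparison, so their number is not read as a result. The values are log2 differences, live non-draining minus fixed non-draining, with 3 libraries each, and all fixed non-draining libraries carry library code 40, so code and inoculum cannot be fully told apart. No explanation was weighed.

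In cLEC-like cells Fos differed by 1.19, Egr1 by 1.15, Fosb by 1.11, Klf4 by 0.97, Dusp1 by 0.90 and Cyr61 by 0.53, all immediate early genes. In the same class Adamtsl1 differed by 1.22, Igkc by 1.62, Ighg1 by 8.45, Dkk2 by -1.03 and Slfn2 by -0.38. The Ighg1 value rests on 1 library against libraries at 0 and has no size to read. In fLEC-like cells Fos differed by 1.39, Dusp1 by 0.84, Cebpb by 0.84, Zfp36 by 0.74, Junb by 0.72 and Hes1 by 0.69. In MedLEC-like cells Ccl20 differed by 2.93 and Isg15 by -1.09.

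In TRC-like cells Glycam1 differed by 1.33, Galnt16 by -0.96, Tppp3 by -0.94, Flt3l by -0.50 and Xist, the X-inactivation RNA, by -0.39. In MedRC-like cells Mt1 differed by 1.66 and Timd4 by -1.13, and in PRC-like cells Postn by -3.86, Angptl4 by -2.30 and Gpnmb, a lysosomal glycoprotein, by 1.30. In FDC-like cells Egr1 differed by 4.79 and mt-Nd3 by 3.33. The heat shock genes of ActSC-like cells, lower than in naive nodes, were higher than in fixed non-draining nodes, Hsph1 by 1.26, Dnajb1 by 1.03 and Hspa1a by 0.87.

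In T cell-like cells C3 differed by 2.17, Rpl35 by 1.12, Rpl39 by 0.89, mt-Nd5 by 0.83, Rps27 by 0.79, mt-Co1 by 0.77 and mt-Nd2 by 0.66. In B cell-like cells mt-Nd3 differed by 1.36, and in dendritic cell-like cells the actin-binding gene Tagln2 by 0.42. Among shares, B cell-like cells differed by 0.51, dendritic cell-like cells by 0.35 and LECs by -0.74.

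The 4 naive libraries were screened for 180 called pairs of named genes and classes and for 24 shares. Kept cells and the medians of UMIs, genes and mitochondrial share were screened too. In all, 11 results had 1 library apart by Dixon's ratio of gap to range, past its 95% critical value. Chance marks about 1 in 20, so the number of flags is not read as a result. Naive A stood low for mt-Nd3 in TRC-like cells (ratio 0.938) and high for kept cells (0.890) and the share of BEC-like cells (0.911, at 4.66% of kept cells). Naive B stood high for Ccl20 in B cell-like cells (0.988, at 49.7 CPM), for Igkc in TRC-like cells (0.844) and for Fosb in cLEC-like cells (0.862), and low for Egr1 in MedLEC-like cells (0.872). Naive C stood high for Ier2 in MedRC-like cells (0.934). Naive D stood high for Saa3 (0.870) and low for Postn (0.831) in MedRC-like cells, and low for the endothelial junction gene Cldn5 in TRC-like cells (0.878). Groups of 3 libraries were not screened.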

How the results depend on the processing

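Shares of plasma cell-like, B cell-like, FDC-like, MedRC-like, fibroblastic and pericyte-like cells and of clusters 11 and 14 kept their direction and their call under all alternatives run. Gene counts moved more, and the cause was not tested except where fewer cells or libraries were fitted. In hematopoietic classes fibroblastic transcripts moved with the groups, and in LEC and MRC-like classes the mix of clusters did. PRC-like, FDC-like and plasma cell-like classes held few cells per library, and a call missed there says little. Changes are reported on libraries that may not be separate animals.

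By DESeq2, 23 genes were called in PRC-like (4 higher, 19 lower), 109 in MedLEC-like (36 higher, 73 lower), 215 in dendritic cell-like and 66 in macrophage/monocyte-like cells (25 higher, 41 lower), and in the other 7 classes the split was 6 higher and 14 lower. Without a filter on low counts, 169 were called in TRC-like, 108 in MRC-like, 143 in MedRC-like, 105 in PRC-like, 192 in cLEC-like, 151 in fLEC-like, 369 in MedLEC-like, 406 in B cell-like, 360 in dendritic cell-like and 118 in macrophage/monocyte-like cells and 354 over the other 7 classes. With at most 10% mitochondrial UMIs there were 2 in PRC-like, 110 in B cell-like, 7 in T cell-like (of 1142 genes tested), 32 in dendritic cell-like and 1 in macrophage/monocyte-like cells. The difference in the median mitochondrial share per cell was then 0.339 points and no longer past the threshold. With marked doublets left out 56 were called in dendritic cell-like cells. In a fit of only the 7 libraries there were 19 in MRC-like, 23 in PRC-like, 42 in MedLEC-like and 34 over the other 7 classes.

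With only code 49 libraries in the live non-draining and naive groups, and the other groups whole, there were 31 in TRC-like, 1 in PRC-like, 11 in MedLEC-like, 36 in B cell-like, 47 in T cell-like, 24 in dendritic cell-like and 7 in macrophage/monocyte-like cells and 9 over the other 7 classes, from fewer libraries. There the shares of cluster 17 (log2 fold change -0.65) and T cell-like cells (-0.74) passed the threshold, and that of TRC-like cells (0.27) did not. With only the largest cluster of each class, chosen after seeing the data, there were 19 in TRC-like, 6 in MRC-like, 19 in MedRC-like, 5 in cLEC-like, 17 in fLEC-like, 14 in MedLEC-like, 6 in B cell-like and 9 in dendritic cell-like cells. In that setting the sign turned for Cyr61 in cLEC-like (-0.00548), Dusp1 in dendritic cell-like (-0.0309), Ifi27l2a in B cell-like (0.10), Mt1 in MedRC-like (-0.0102) and Socs3 in fLEC-like cells (-0.81), and Ighg1 in cLEC-like cells was at 0.

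Leaving out each library in turn gave 44 to 72 calls in TRC-like, 26 to 88 in MRC-like, 0 to 4 in PRC-like, 21 to 64 in fLEC-like, 12 to 544 in MedLEC-like, 61 to 186 in B cell-like, 56 to 88 in T cell-like, 20 to 192 in dendritic cell-like and 3 to 9 in macrophage/monocyte-like cells and 13 to 76 over the other 7 classes. The log2 fold change of shares ranged from 0.28 to 0.66 for ActSC-like, 0.10 to 0.44 for MedLEC-like, -0.56 to -0.25 for PRC-like, -0.60 to -0.20 for T cell-like and 0.22 to 0.29 for TRC-like cells and from -0.52 to -0.18 for cluster 17. The difference in the median mitochondrial share per cell ranged from 0.834 to 1.16 points, with too few splits left for the exact test to pass. Ighg1 in cLEC-like cells ranged from -2.33, without live non-draining A, to 6.63.

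Of 180 named gene and class pairs, 62, 68 and 80 were no longer called without live non-draining A, B and C, and 46, 50, 43 and 33 without naive A to D. Among code 49 libraries 101 were lost, by DESeq2 46, with at most 10% mitochondrial UMIs 56 of 176, and with the largest cluster only 93 of 167.

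The letters that libraries share were checked only between live non-draining and naive libraries, which come from different mice. Deviations of same-letter libraries there correlated at -0.150 to 0.153, over 0.1 in 2 of 33 cases, against -0.202 to 0.200 for other letters. Whether the letters pair draining with non-draining libraries was not checked. With the letter as a replicate block 26 genes were called in MRC-like, 74 in B cell-like and 36 over the other 7 classes.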
